A study of Mus minutoides with 4 samples.

Results

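Alternative splicing lets 1 gene give several transcripts, and RNA-binding proteins that switch exons on or off change in level as cells differentiate. The genes described here are 10 such regulators, taken by name out of the 41325 genes in the tables, and all 10 were present and passed the filter on low reads. They are the muscleblind genes *Mbnl1*, *Mbnl2* and *Mbnl3*, *Rbfox2*, the polypyrimidine tract-binding genes *Ptbp1* and *Ptbp2*, *Celf1* and *Celf2*, the quaking gene *Qk*, and *Son*. Muscleblind proteins favour the exon choices of differentiated tissues and repress exons typical of embryonic stem cells. PTBP1 represses neuronal exons, among them an exon of *Ptbp2* whose skipping leads to decay of the *Ptbp2* transcript. CELF proteins oppose muscleblind proteins on many exons in heart and muscle, RBFOX2 and QK act on exons of mesenchymal and muscle genes, and SON is a scaffold of nuclear speckles that human embryonic stem cells need for splicing of pluripotency genes.

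RNA-seq was performed on 4 libraries of the African pygmy mouse *Mus minutoides*, from fibroblast lines 1 and 2 as well as from iPSC lines 6 and 10, with n = 2 per group. The fibroblasts were primary cultures of the tail tip, were not reprogrammed and were grown in medium with serum. The iPSCs came from such fibroblasts after electroporation of PiggyBac plasmids that carried *Oct3/4*, *Klf4*, *Sox2* and *c-Myc*, or *Glis1*, *Nanog* and *Lin28a*, under doxycycline control, with an rtTA, EGFP and neomycin resistance plasmid and a transposase plasmid. Doxycycline was withdrawn, and each line grew from cells of a picked colony in 2i medium with serum replacement on feeders (embryonic fibroblasts of *M. musculus* stopped with mitomycin C), so cell type, medium and feeder cells cannot be told apart. *Nanog* by RT-qPCR differed among the iPSC lines made, of which lines 6 and 10 were sequenced. Whether lines 1 and 2, or 6 and 10, derive from different animals is not stated, and each p-value reflects the spread among these libraries alone.

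Exon reads summed to between 33084850 and 36694828 per library, and intron reads made up 9.28% to 12.6% of gene reads. All 10 pluripotent markers had a TPM of at least 1 in both iPSC libraries and none reached it in the fibroblasts. The summed TPM of 12 fibroblast markers was 28240 and 33126 in fibroblast lines 1 and 2, and was 24.0% of their mean in iPSC line 6 and 11.97% in iPSC line 10. All 12 had a TPM of at least 1 in every library, and each was higher in line 6 than in line 10. Single markers ranged from 8.29% to 315% of the fibroblast mean in line 6 and from 3.14% to 101% in line 10, with *Dcn* at the top in both. The sum of 5 macrophage markers was 37.4 TPM in iPSC line 6 and 111 TPM in line 10, and at most 2.15 TPM in a fibroblast library. In bulk RNA, fewer cells of a type and less RNA per cell cannot be told apart. The reads were placed on the *M. musculus* build GRCm38, and the tables give reads per gene, so inclusion of single exons was not analysed here.

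Most of the 10 regulators were lower in iPSCs than in fibroblasts. *Mbnl1*, *Mbnl2*, *Mbnl3*, *Rbfox2*, *Celf2* and *Qk* fell, by a log2 fold change of -1.31 to -3.11, and *Ptbp1*, *Ptbp2*, *Celf1* and *Son* did not pass the fold threshold. A gene was called in edgeR's quasi-likelihood test on exon reads when the Benjamini-Hochberg adjusted p over all 17777 genes tested was under 0.05 and the fold over 2. By this rule 6 of the 10 were called lower and 0 higher, where 22.3% of all genes tested were called lower, 27.1% higher and 49.4% either way. The median log2 fold change of the 10 was -1.45, against 0.08 over all genes. At an unadjusted p under 0.05 in edgeR, 3 of the 10 had a positive and 7 a negative log2 fold change. Of all 17777 genes tested, 13096 had such a p in either direction. DESeq2 called 0 of the 10 higher and 6 lower, and over all genes 4745 higher and 3827 lower. With total counts in place of TMM (trimmed mean of M-values) scaling, the median over all genes was 0.36, the calls over all genes went from 4818 higher and 3962 lower to 5768 and 3028, and 2 members, *Ptbp1* and *Celf1*, were called higher.

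In each of the 10, the TPM values of the groups did not overlap, which also held for 86.5% of all genes tested. TPM here is exon reads per exon length scaled to the same total in each library. Comparing genes by TPM depends on the annotated exon length, which was 18717 bases for *Mbnl1*, 11993 for *Mbnl2* and 4740 for *Ptbp1*. How well these lengths match the transcripts present was not tested. In fibroblasts the mean TPM ran from *Ptbp1* through *Rbfox2*, *Son*, *Mbnl2*, *Celf1*, *Qk*, *Mbnl1*, *Ptbp2* and *Celf2* to *Mbnl3*. *Celf1* and *Qk* overlapped there, as did *Ptbp2* and *Celf2*. In iPSCs the order was *Ptbp1*, *Celf1*, *Son*, *Rbfox2*, *Qk*, *Mbnl2*, *Ptbp2*, *Mbnl1*, *Celf2* and *Mbnl3*, with overlapping values among *Qk*, *Mbnl2* and *Ptbp2* and between *Celf2* and *Mbnl3*. The summed TPM of the 10 was 738 and 802 in fibroblast lines 1 and 2, against 735 and 741 in iPSC lines 6 and 10.

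**Figure D1:**
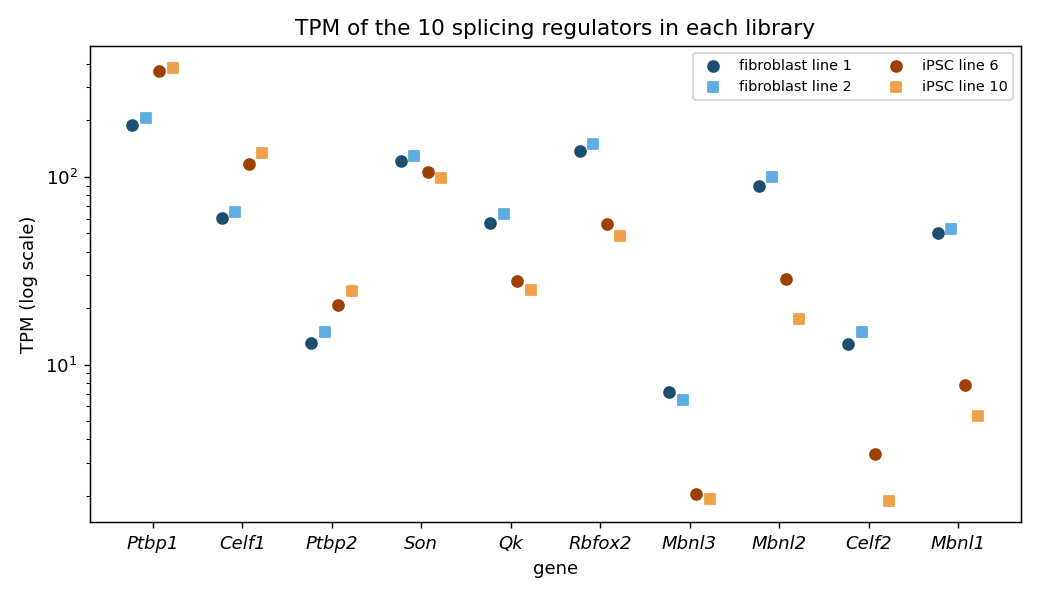
TPM on a log scale for each of the 10 genes, with 1 point per library (blue for fibroblast lines, orange for iPSC lines). The fibroblast and iPSC points of each gene do not overlap, and the iPSC values are highest for *Ptbp1* (366 and 382) and lowest for *Mbnl3* (2.05 and 1.93) and *Celf2* (3.33 and 1.89).

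*Mbnl1* showed the largest difference of the 10. It lies on chromosome 3 from 60472830 to 60629750 on the plus strand (ENSMUSG00000027763). Its TPM was 50.3 and 53.1 in fibroblast lines 1 and 2, against 7.76 and 5.31 in iPSC lines 6 and 10. Both iPSC lines were far below both fibroblast lines, and line 10 was the lower. The means were 51.7 ± 1.95 and 6.54 ± 1.73 TPM (SD, n = 2 each), 7.90-fold lower in iPSCs, and the log2 fold change of exon reads was -3.11 (standard error, SE, 0.22, edgeR adjusted p = 0.000555). Of all genes with a TPM of at least 1, 26.6% and 27.7% lay above *Mbnl1* in the fibroblast libraries and 66.2% and 71.6% in iPSC lines 6 and 10. The number of its 25 annotated transcripts that were uniquely identified was 16 and 15 in the fibroblast lines, against 8 and 12 in iPSC lines 6 and 10, at 8757 and 8519 exon reads against 1588 and 1009.

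*Mbnl2*, the most abundant muscleblind gene in every library, lies on chromosome 14 from 120275669 to 120431697 (ENSMUSG00000022139). Its TPM was 89.2 and 100.2 in fibroblast lines 1 and 2, against 28.7 and 17.6 in iPSC lines 6 and 10. The iPSC lines were both lower and differed from each other by 1.63-fold. The means were 94.7 ± 7.83 and 23.1 ± 7.86 TPM (SD, n = 2 each), and in exon reads the log2 fold change was -2.16 (SE 0.26, edgeR adjusted p = 0.00238). *Mbnl3*, which is known in mouse muscle for antagonising differentiation, lies on chromosome X from 51117269 to 51206532 (ENSMUSG00000036109). It was the least abundant of the 3, at 7.13 and 6.52 TPM in the fibroblast lines, against 2.05 and 1.93 TPM in iPSC lines 6 and 10. The iPSC values were close together. The means were 6.83 ± 0.432 and 1.99 ± 0.0869 TPM (SD, n = 2 each), and the log2 fold change was -1.90 (SE 0.17, edgeR adjusted p = 0.001). It rested on few reads, 580 and 489 in exons in the fibroblasts and 196 and 171 in the iPSCs.

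The make-up of the muscleblind family differed between the groups. The 3 genes summed to 147 and 159.8 TPM in fibroblast lines 1 and 2, against 38.5 and 24.8 TPM in iPSC lines 6 and 10. *Mbnl1* made up 34.3% and 33.2% of the sum in fibroblasts, against 20.2% and 21.4% in iPSCs. *Mbnl2* made up 60.8% and 62.7% in fibroblasts, against 74.5% and 70.8% in iPSCs. The ratio of *Mbnl2* to *Mbnl1* TPM was therefore 1.77 and 1.89 in fibroblasts, against 3.69 and 3.30 in iPSCs, without overlap. With 2 libraries against 2, these ratios were not tested.

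*Rbfox2* encodes a protein that binds next to alternative exons and is known to act in mesenchymal cells, muscle and embryonic stem cells. It lies on chromosome 15 from 77078990 to 77307004 on the minus strand (ENSMUSG00000033565). Its TPM was 138 and 150.0 in fibroblast lines 1 and 2, against 56.0 and 48.5 in iPSC lines 6 and 10. Both iPSC lines were well below the fibroblast lines, with 22.5% and 25.9% of genes of at least 1 TPM above it in iPSC lines 6 and 10. The means were 144 ± 8.75 and 52.2 ± 5.35 TPM (SD, n = 2 each), and in exon reads the log2 fold change was -1.59 (SE 0.11, edgeR adjusted p = 0.000494).

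*Qk*, whose protein guides splicing and RNA stability in glia, smooth muscle and mesenchymal cells, lies on chromosome 17 from 10202601 to 10319854 (ENSMUSG00000062078). Its TPM was 57.1 and 63.4 in fibroblast lines 1 and 2, against 28.03 and 24.9 in iPSC lines 6 and 10. This was the smallest fall among the genes called. The means were 60.2 ± 4.45 and 26.4 ± 2.24 TPM (SD, n = 2 each). In exon reads the log2 fold change was -1.31 (SE 0.10, edgeR adjusted p = 0.000602), and it lay between -1.03 and -1.43 under the 19 alternatives.

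Of the CELF genes, *Celf2* fell and *Celf1* did not pass the fold threshold. *Celf2*, a long gene of 969870 bases on chromosome 2 from 6539694 to 7509563 (ENSMUSG00000002107), was at 13.0 and 14.9 TPM in fibroblast lines 1 and 2, against 3.33 and 1.89 TPM in iPSC lines 6 and 10. Both iPSC lines were low, and line 6 was 1.76-fold above line 10. The means were 13.9 ± 1.37 and 2.61 ± 1.02 TPM (SD, n = 2 each). The log2 fold change was -2.53 (SE 0.30, edgeR adjusted p = 0.00218), and it was -2.18 without iPSC line 10 and -3.03 without iPSC line 6. *Celf1*, on chromosome 2 from 90940382 to 91019497 (ENSMUSG00000005506), encodes a widely expressed protein of splicing and mRNA decay. Its TPM was 60.1 and 64.6 in the fibroblast lines, against 117 and 135 in iPSC lines 6 and 10. The iPSC lines were both higher, by 2.02-fold on mean TPM (62.4 ± 3.20 and 126 ± 12.9, SD, n = 2 each). The log2 fold change of exon reads after TMM scaling was 0.88 (SE 0.09, edgeR adjusted p = 0.00141), under the fold threshold. It was called higher with total counts (1.17), upper-quartile scaling (1.06), limma on log2(TPM + 0.1) (1.01) and the test on TPM that the study states (1.01). The ratio of *Celf1* to *Celf2* TPM was 4.64 and 4.34 in fibroblast lines 1 and 2, against 35.0 and 71.4 in iPSC lines 6 and 10.

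*Ptbp1* had the highest TPM of the 10 in all 4 libraries. It lies on chromosome 10 from 79854427 to 79864771 (ENSMUSG00000006498). Its TPM was 189 and 205 in fibroblast lines 1 and 2, against 366 and 382 in iPSC lines 6 and 10. Both iPSC lines were higher, by 1.90-fold on mean TPM (197 ± 11.2 and 374 ± 11.5, SD, n = 2 each), and only 2.45% and 2.41% of genes of at least 1 TPM lay above it there. The log2 fold change was 0.79 (SE 0.07, edgeR adjusted p = 0.000808), which did not reach the fold threshold. With total counts it was 1.08 and was called. *Ptbp1* was the member with the lowest share of uniquely placed exon reads, 94.5% to 95.9% over the libraries, while the others were at 98.4% or more. On unique reads its log2 fold change was again 0.79.

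*Ptbp2*, the paralog that takes over in developing neurons, lies on chromosome 3 from 119718742 to 119784466 (ENSMUSG00000028134). It was at 13.0 and 14.9 TPM in fibroblast lines 1 and 2, against 20.7 and 24.7 TPM in iPSC lines 6 and 10. The iPSC lines were both somewhat higher (means 14.0 ± 1.33 and 22.7 ± 2.87 TPM, SD, n = 2 each), and the log2 fold change of 0.57 (SE 0.11, edgeR adjusted p = 0.0085) did not reach the fold threshold. *Ptbp1* exceeded *Ptbp2* by 14.6-fold and 13.8-fold in TPM in fibroblast lines 1 and 2, against 17.7-fold and 15.5-fold in iPSC lines 6 and 10. These ratios were not tested. By contrast with the narrow range of the pair, the ratio of *Ptbp1* to the muscleblind sum was 1.29 and 1.28 in fibroblasts, against 9.51 and 15.4 in iPSC lines 6 and 10.

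*Son*, on chromosome 16 from 91647506 to 91679221 (ENSMUSG00000022961), had the smallest difference of the 10. Its TPM was 122 and 129 in fibroblast lines 1 and 2, against 106 and 99.2 in iPSC lines 6 and 10. The iPSC values were slightly below the fibroblast values, with means of 103 ± 4.99 and 125.1 ± 5.09 TPM (SD, n = 2 each). The log2 fold change was -0.41 (SE 0.08, edgeR adjusted p = 0.00933), it did not reach the fold threshold, and it lay between -0.13 and -0.55 under the 19 alternatives. Its adjusted p was 0.215 with total counts in edgeR and 0.093 to 0.140 in the limma fits. It stayed under 0.05 with the other scalings, reads and filters in edgeR and in DESeq2.

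Within the iPSC group, all 7 genes with a lower mean TPM in iPSCs were higher in line 6 than in line 10, and all 3 genes with a higher mean were higher in line 10. The largest such gaps were those of *Celf2*, *Mbnl2* and *Mbnl1*, at 1.76-fold, 1.63-fold and 1.46-fold. Those of *Mbnl3* and *Son* were small, at 1.06-fold and 1.07-fold. The share of all genes ordered this way between the lines was not measured. The fibroblast markers were also higher in line 6. Set against the fibroblast mean, *Mbnl1* was at 15.0% in iPSC line 6 and 10.3% in line 10, below the summed fibroblast markers (24.0% and 11.97%) in both lines. *Celf2* was at 23.9% and 13.6%, close to them. *Mbnl2* was at 30.3% and 18.5%, *Mbnl3* at 30.1% and 28.3%, *Rbfox2* at 39.0% and 33.7% and *Qk* at 46.5% and 41.3%, all above the marker sum in both lines. The marker sum is weighted to its most abundant genes, and *Col1a1* alone was at 12542 and 14995 TPM in fibroblast lines 1 and 2. The median of the 12 single markers was 28.7% in iPSC line 6 and 12.6% in line 10. *Celf2* lay below that median in line 6 and above it in line 10. The part of feeder or other fibroblast-type RNA in these levels was not tested.

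**Figure D2:**
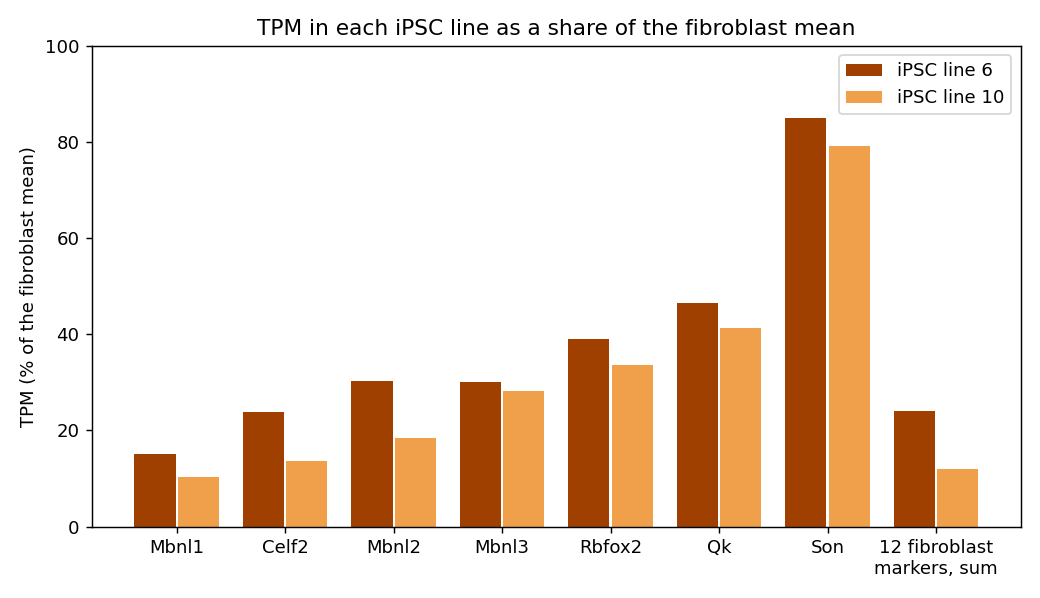
TPM in iPSC lines 6 and 10 as a percentage of the fibroblast mean, for the 7 genes with a lower mean in iPSCs and for the summed TPM of 12 fibroblast markers. Line 6 is above line 10 in every pair. Of the 7 genes, only *Mbnl1* (15.0% and 10.3%) lies below the marker sum (24.0% and 11.97%) in both lines.

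Exon and intron reads of a gene need not change alike, since reads in introns can come from RNA that is not yet spliced. Where the intron reads of these libraries came from was not tested. The comparison was added after the data were seen. In *Celf2*, introns held 16.8% and 15.4% of gene reads in fibroblast lines 1 and 2 (95% Wilson intervals 15.6% to 18.0% and 14.3% to 16.6%). In iPSC lines 6 and 10 they held 38.4% and 50.2% (35.9% to 40.8% and 47.0% to 53.3%). The reads behind these shares were 630 and 602 intron reads against 586 and 499, beside exon reads of 3122 and 3309 against 942 and 496. The intervals cover counting error only. *Qk* had the lowest share of the 10 in fibroblasts, 2.32% and 1.89%, and it was 4.76% and 6.07% in iPSC lines 6 and 10, without overlap. *Mbnl3* went from 8.37% and 7.91% to 25.2% and 14.9%, on 53 and 42 intron reads in fibroblasts, against 66 and 30 in iPSCs. The 11782 genes with at least 100 gene reads in each library had a median intron share of 9.94% and 9.57% in the fibroblast libraries. In the iPSC libraries it was 11.3% and 11.4%. Of these genes, 47.1% had a higher intron share in both iPSC libraries than in the fibroblast libraries, and 23.6% a lower one. A share that was higher in both iPSC libraries, like that of *Qk*, was therefore common.

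**Figure D3:**
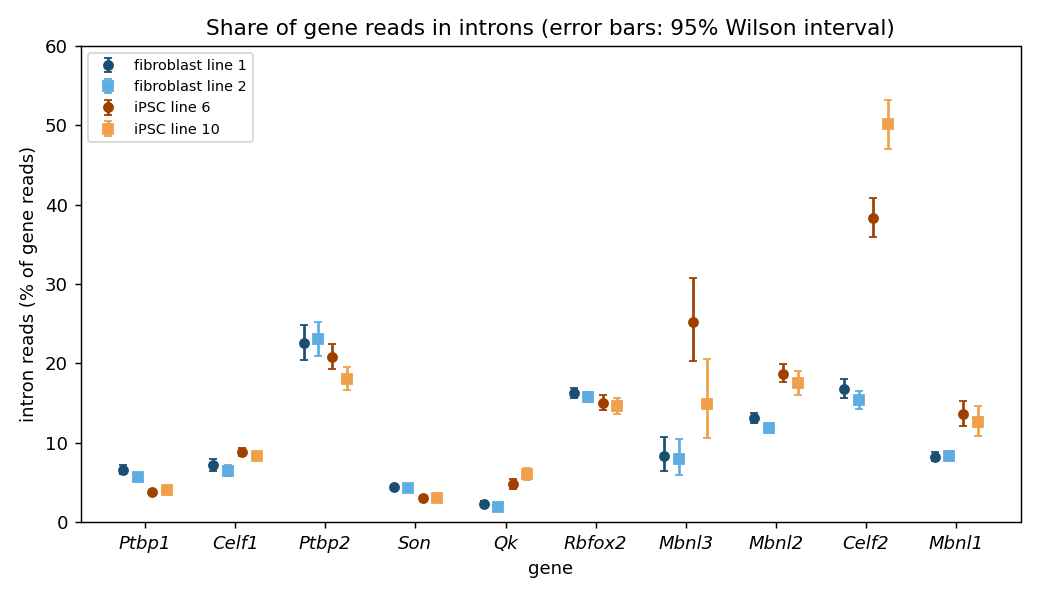
Intron reads as a percentage of gene reads for each of the 10 genes and each library, with 95% Wilson intervals for counting error. *Celf2* stands at 38.4% and 50.2% in iPSC lines 6 and 10 against 16.8% and 15.4% in the fibroblast lines.

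The difference between exon and intron change was tested with edgeR on both kinds of reads, with the library as a block, over 14515 genes. Exon reads fell more than intron reads in 3 of the 10 genes, *Celf2*, *Qk* and *Mbnl3*, where 9.21% of all genes tested were called that way and 22.7% in either direction. The difference on the log2 scale was -1.81 for *Celf2* (SE 0.21, edgeR adjusted p = 0.000409), -1.19 for *Qk* (SE 0.17, edgeR adjusted p = 0.00122) and -1.28 for *Mbnl3* (SE 0.37, edgeR adjusted p = 0.0265). Taken alone, intron reads had a log2 fold change of -0.74 for *Celf2* (edgeR adjusted p = 0.00285, under the fold threshold), -0.10 for *Qk* (edgeR adjusted p = 0.625) and -0.53 for *Mbnl3* (edgeR adjusted p = 0.288). Leaving out a library leaves 1 library in its group, so only the size of the difference is given for those fits. For *Celf2* it lay between -2.16 and -1.47. For *Qk* it lay between -1.37 and -0.99, and was under the fold threshold without iPSC line 10. For *Mbnl3* it was -1.30 without fibroblast line 1 and -1.29 without line 2. It was -1.68 without iPSC line 10 and -0.75, under the fold threshold, without iPSC line 6.

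The other muscleblind genes lay in the same direction with smaller differences. *Mbnl1* had an intron share of 8.27% and 8.40% in the fibroblast lines and of 13.6% and 12.6% in iPSC lines 6 and 10, and its exon minus intron difference of -0.52 (SE 0.13, edgeR adjusted p = 0.0152) was under the fold threshold. *Mbnl2* had shares of 13.2% and 11.9%, then 18.7% and 17.5%, with a difference of -0.42 (SE 0.14, edgeR adjusted p = 0.0406). *Rbfox2* had like shares in all libraries, between 14.6% and 16.3%, and a difference of 0.35 (SE 0.14, edgeR adjusted p = 0.0873). For *Celf1* the shares ran from 6.49% to 8.82% and the difference was -0.14 (SE 0.13, edgeR adjusted p = 0.406).

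Reads across exon junctions can be given as a share of exon reads. In *Celf2* they were 22.0% and 21.9% in the fibroblast lines and 15.2% and 20.2% in iPSC lines 6 and 10. In *Mbnl3* they were 12.4% and 14.1%, then 19.9% and 18.1%. *Ptbp1* had the highest share, between 37.9% and 39.4% in every library, and *Son* stayed between 10.4% and 11.3%. These shares were not tested.

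No gene of the 10 was called with exon reads rising more than intron reads, which 13.4% of all genes tested were. In that direction 4 of the 10 had an unadjusted p under 0.05 in edgeR. Of all 14515 genes tested, 7047 had such a p in either direction. For *Ptbp1* the difference was 0.91 (SE 0.15, edgeR adjusted p = 0.00211), under the fold threshold, and its intron share was 6.63% and 5.68% in fibroblast lines 1 and 2, against 3.77% and 4.02% in iPSC lines 6 and 10. For *Son* the difference was 0.74 (SE 0.15, edgeR adjusted p = 0.00501), and its intron reads alone were called lower, with a log2 fold change of -1.13. *Mbnl1*, *Mbnl2* and *Rbfox2* were called lower on intron reads too, at -2.54, -1.70 and -1.90, and *Celf1* was called higher, at 1.04, where 17% of all genes tested on intron reads were called lower and 19.1% higher. *Ptbp1* and *Ptbp2* had intron log2 fold changes of -0.091 and 0.082 and were not called. Intron reads as a whole were 10.9% and 9.28% of gene reads in the fibroblast libraries and 11.95% and 12.6% in iPSC lines 6 and 10. The tests scaled exon and intron reads separately in each library. A shift of intron content common to all genes is therefore removed from these differences, but not from the intron shares.

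**Figure D4:**
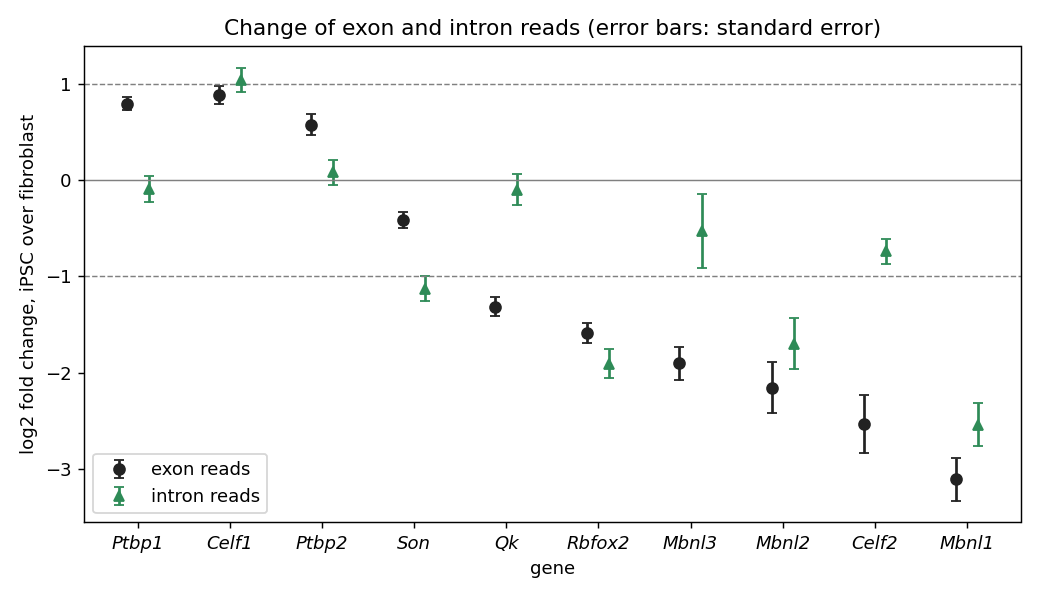
Log2 fold change of iPSC over fibroblast for exon reads (circles) and intron reads (triangles) of each gene, with standard errors and dashed lines at the fold threshold of 2. Exon and intron values lie farthest apart for *Celf2* (-2.53 and -0.74), *Mbnl3* (-1.90 and -0.53) and *Qk* (-1.31 and -0.10).

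Of 7 relatives of the 10 from the same families, 6 were tested, and *Rbfox1*, *Rbfox3*, *Celf3* and *Celf4* were called higher, where 27.1% of all genes tested were called higher. The first 3 of these passed the filter on low reads only through the iPSC libraries, so their calls carry no weight as a count, and of the 3 that passed in both groups 1, *Celf4*, was called. The called genes are known from neurons and stood at low levels. *Rbfox3*, the gene of the neuronal nuclear antigen NeuN, had 1 and 0 exon reads in fibroblast lines 1 and 2, against 64 and 107 in iPSC lines 6 and 10, a ratio of 133 (95% counting interval 23.5 to 5267). *Rbfox1* had 0 and 1 against 58 and 11, a ratio of 53.5 (95% counting interval 9.29 to 2143). Both libraries of a group were pooled for these ratios, so the intervals leave out the spread between lines. Because of the filter, they carry no weight as a test either. The neuronal gene *Celf4* was at 0.225 and 0.326 TPM in the fibroblasts and 3.20 and 2.60 TPM in iPSC lines 6 and 10. *Ptbp3*, an abundant relative of *Ptbp1*, was at 53.0 and 56.9 TPM against 110.4 and 115 TPM, a log2 fold change of 0.91 under the fold threshold. *Celf5* was at 3.42 and 4.003 against 6.85 and 8.61 TPM, with a log2 fold change of 0.93. *Celf6* was not tested, at 4 to 6 exon reads per library.

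Of 21 other cell type-specific splicing regulators, 20 were tested, of which *Rbm20*, *Srrm3* and *Elavl4* passed the filter on low reads only through the iPSC libraries. Of the other 17, 11 were called higher, where 27.1% of all genes tested were called higher and 22.3% lower. None of these 17 was called lower by edgeR or DESeq2, with 0 lower at an unadjusted p under 0.05 in edgeR. *Rbm20*, known for splicing of titin in heart, was at 0.095 and 0.103 TPM in the fibroblast lines, against 17.5 and 17.8 TPM in the iPSC lines. Its exon reads were 6 and 6 against 1296 and 1227, and because of the filter its call carries no weight. The neural progenitor gene *Msi1* was at 0.334 and 0.422 TPM against 16.8 and 24.6 TPM in iPSC lines 6 and 10 (log2 fold change 5.53). *Rbpms2*, a regulator of smooth muscle cells, was at 7.38 and 8.19 against 225 and 234 TPM (log2 fold change 4.74). *Raver1*, a partner of PTBP1 in exon repression, was at 129.6 and 144 TPM against 168 and 185 TPM and was not called, and neither was *Khdrbs1*, the gene of SAM68, at 91.7 and 98.1 against 113 and 139 TPM. *Rbm24* was not tested, with no exon read in fibroblasts, against 2 and 21 in the iPSC lines. Of 7 neuron markers, *Tubb3* was at 71.2 and 75.6 TPM in the fibroblasts against 318 and 444 TPM in iPSC lines 6 and 10, and *Stmn2* at 0.134 and 0.291 against 33.6 and 28.8 TPM. The list summed to 80.4 and 86.7 TPM in the fibroblasts against 360.2 and 480.02 TPM in the iPSC lines, and most of this was *Tubb3*. *Rbfox3* was at 0.0185 and 0 TPM against 1.01 and 1.81 TPM. *Elavl3* was at 2.67 and 3.32 against 3.73 and 3.85 TPM, and *Map2* at 3.97 and 4.46 against 3.92 and 1.71 TPM. *Snap25* and *Syt1*, which mark mature neurons, were lower in the iPSC lines, at 0.0808 and 0.0871 TPM and at 0.121 and 0.201 TPM, than in the fibroblasts, at 0.332 and 0.498 TPM and at 2.10 and 2.52 TPM. The part of neuron-type RNA in these results was not tested.

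Genes with exons that these proteins are known to switch were measured as whole genes. All 11 passed the filter in both groups, and 6 were called lower and 0 higher, where 22.3% of all genes tested were called lower and 27.1% higher, with 2 higher at an unadjusted p under 0.05 in edgeR and 0 called higher by DESeq2, and the median log2 fold change was -1.08. The laminin receptor gene *Itga6* was at 53.3 and 59.9 TPM in fibroblasts, against 14.6 and 14.4 TPM in iPSC lines 6 and 10 (log2 fold change -2.09). The actin crosslinker gene *Flna* was at 821 and 866 against 245 and 234 TPM (log2 fold change -1.94), and the tropomyosin gene *Tpm1* at 241 and 236 against 80.4 and 68.9 TPM (log2 fold change -1.81). The pyruvate kinase gene *Pkm*, in which PTBP1 favours the exon of the isoform of proliferating cells, was at 660.0 and 741 against 1062 and 1164 TPM, a log2 fold change of 0.54 that was not called. *Actn1* was at 321 and 332 against 221 and 198 TPM, with a log2 fold change of -0.77 that was not called. Several of these genes belong to the cytoskeleton of fibroblasts, and the part of the summed fibroblast markers (24.0% and 11.97% of the fibroblast mean in iPSC lines 6 and 10) in their levels was not tested.

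**Figure D5:**
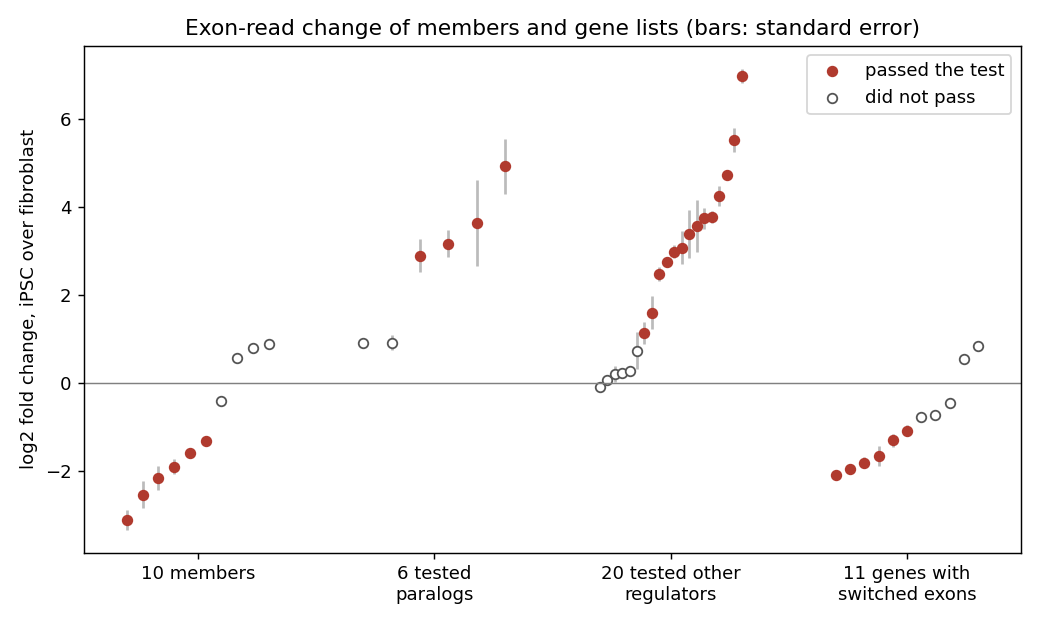
Log2 fold change of exon reads, iPSC over fibroblast, for each tested gene of the 10 regulators, 6 paralogs, 20 other splicing regulators and 11 genes with switched exons. Filled points passed the test (6 lower, 4 higher, 14 higher and 6 lower in these groups, with 3 of the 4 and 3 of the 14 past the filter on low reads only through iPSCs) and bars are standard errors.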

How the data were processed

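The authors deposited 1 table per library with total RNA-seq read counts per gene, in exons, introns and across exon junctions, as all reads and as uniquely placed reads, and with RPKM and TPM. GRCm38 is the build listed in the submitters' processing notes. How reads were aligned and counted is not given in the sources used here, and how many *M. minutoides* reads were lost on *M. musculus* gene models was not measured. The deposited TPM equals exon reads over exon length scaled per library. The deposited RPKM was not used, and the deposited fractions (unique and intron shares) were recomputed from the reads.

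Total exon reads were tested with edgeR 4.0.16 in R 4.3.3 (quasi-likelihood, TMM, filterByExpr, prior count 2). Standard errors are the log2 fold change over the root of F. The 10 genes and the gene lists were chosen with earlier results of these data known. All 10 were named, and from each list up to 3 called genes per direction with the largest change and up to 2 others with the highest TPM. Ratios for genes with 1 to 3 fibroblast reads carry exact binomial intervals on reads pooled within each group. The exon fit and the interaction fit were tested on simulated data. Between the fibroblast libraries the per-gene chi-square had a median of 1.61, and between the iPSC libraries of 6.52 (0.455 under sampling noise). Alternatives used DESeq2 1.42.0, limma 3.58.1, other reads, scalings, filters and thresholds, the test on TPM that the study states, and each library left out. Intron reads and the exon and intron interaction were added after seeing the data.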

Additional observations from a re-analysis of the deposited data

How the results depend on the processing

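The falls of *Mbnl1*, *Mbnl2*, *Mbnl3*, *Rbfox2*, *Celf2* and *Qk* kept their direction under all 19 alternatives that used exon reads, gene reads or TPM. They were called in each of these that kept all 4 libraries. Leaving out a library leaves 1 library in its group, so only effect sizes are given for those fits. With all 4 libraries, the number of the 10 called lower was 6 in each alternative other than no fold threshold, where *Son* made it 7. The number called higher was 1 with upper-quartile scaling, limma on log2(TPM + 0.1) or the test on TPM that the study states, 2 with total counts, and 3 with no fold threshold. On intron reads, chosen after seeing the data, it was 1 (*Celf1*), the number called lower was 4 (*Mbnl1*, *Mbnl2*, *Rbfox2* and *Son*), and *Ptbp1* had a log2 fold change of -0.091, opposite in sign to that on exon reads. Over all 17777 genes tested, 5378 were called higher with upper-quartile scaling and 5768 with total counts. With no fold threshold 6613 of them were called higher and 5965 lower. Limma on log2(TPM + 0.1) called 4058 of 15482 genes higher, and the test on TPM 4559 of 29437. Genes with switched exons called higher numbered 1 with upper-quartile scaling, total counts or intron reads and 2 with no fold threshold. Of the paralogs, *Rbfox1*, *Rbfox3* and *Celf3* passed the filter on low reads only through the iPSC libraries, so counts that include them carry no weight. Paralogs called higher numbered 2 of 3 tested with limma on log2(TPM + 1) and the filter on TPM. They numbered 6 of 6 with upper-quartile scaling, total counts or no fold threshold. The cause of these shifts was not tested. Without each library in turn, log2 fold changes ranged from -3.43 to -2.86 for *Mbnl1*, -2.58 to -1.85 for *Mbnl2* and -3.03 to -2.18 for *Celf2*. The number of the 10 with exon reads falling more than intron reads was 3 in full and 3 with total counts. No paired analysis was possible because the line numbers of the groups are not shared. *Mbnl3* was the member with the fewest exon reads, 171 to 580 per library.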
